A study of Mus musculus with 10 samples.

Results

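Vstm2a, the mouse gene for V-set and transmembrane domain-containing protein 2A, was described across 10 clonal lines of 3T3-L1 cells, an established line of mouse fibroblasts that can be turned into fat cells in culture. All probe sets annotated to the gene were sought, and 1 was found (probe set 10374356, Entrez gene 211739, chromosome 11) among 34760 probe sets on the array. Vstm2a was thus 1 gene of 19937 that had a probe set of their own, and 1 of 16339 that were bright enough to be tested. It was chosen for its difference between the 2 classes of line, so its own levels are given as a description, without a test.

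The lines were grown up from single colonies after serial dilution, and each was sorted into a class by the triglyceride it stored after exposure to insulin, dexamethasone and IBMX, a phosphodiesterase inhibitor. The 5 Low lines (clones 1E7, 2D7, 2F1, 4D11 and 4H4) stored little and the 5 High lines (clones 3F4, 4D2, 4E3, 5C4 and 5D4) stored much, and they are numbered here from 1 to 5 within each class in that order. RNA for the arrays came from untreated lines, kept below confluence and proliferating in DMEM with 10% serum, so no line had been exposed to the 3 inducers at that point. Each line is 1 clone of the same parent line and was measured on 1 array, so a difference between classes is one between 2 sets of 5 clones, and the spread given is that between clones. The labels name no genotype, passage number or processing batch.

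The product of Vstm2a carries an immunoglobulin V-type domain and, despite the name, is secreted by preadipocytes rather than held in the membrane. It has been described as a factor that amplifies the commitment of precursor cells to the fat lineage, acting through bone morphogenetic protein (BMP) signalling to favour expression of Pparg, the nuclear receptor that directs fat cell formation. BMP ligands bind paired type I and type II receptors, which activate SMAD proteins that enter the nucleus and switch on target genes such as the Id family of helix-loop-helix inhibitors.

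The stretch before the RefSeq start of Vstm2a is shown because the BMP pathway and the PPARγ pathway are followed below and both act through short DNA motifs. It covers chr11:16257492-16257741 of GRCm38.p6 on the plus strand, the 250 bases before the transcription start, and the capitals mark matches to GGCGCC, a palindrome bound by BMP-activated SMADs, and to the GC box GGGCGG on either strand:
Vstm2a promoter: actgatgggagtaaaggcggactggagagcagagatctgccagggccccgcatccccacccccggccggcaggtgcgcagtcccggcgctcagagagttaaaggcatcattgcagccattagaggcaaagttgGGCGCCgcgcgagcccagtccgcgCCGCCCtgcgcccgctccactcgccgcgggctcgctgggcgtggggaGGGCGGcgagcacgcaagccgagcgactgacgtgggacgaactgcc
GGCGCC occurred 1 time, starting 117 bases before the start, and 9.59% of 32851 mouse promoter windows of the same length hold it. GGGCGG occurred 2 times, at 93 bases (on the reverse strand, printed as CCGCCC) and 46 bases before the start, and 32.7% of the windows hold it. Neither the TATA box TATAAA nor the nuclear receptor half-site AGGTCA, which hold in 12.4% and 14% of the windows, was found in these 250 bases on either strand. The window is rich in G and C, at 70% against a median of 52.4%, and holds 28 CG dinucleotides against a median of 6. These matches describe letters in the window. No binding was measured here.

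Vstm2a was high in 4 of the 5 High lines, lower in the fifth, and lowest in the Low lines. On the deposited log2 intensity scale, where 1 unit is a 2-fold difference in signal, the High lines 1 to 5 stood at 10.94, 10.60, 10.37, 10.61 and 8.65. The Low lines 1 to 5 stood at 7.31, 8.03, 7.38, 7.21 and 7.96. The classes did not overlap, but the step between them was small: High line 5 lay 0.62 above Low line 2, the brightest Low line.

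The class means were 10.24 ± 0.91 (SD, n = 5) in High and 7.58 ± 0.39 (SD, n = 5) in Low, a difference of 2.66 or 6.31-fold. Of the 16339 tested genes, Vstm2a had the widest difference between class means in either direction, ahead of Mest at 2.60 and of Ppef1 at -2.01. Mest encodes an imprinted protein tied to fat expansion and Ppef1 a calcium-binding phosphatase. These 3 were the genes whose means differed by more than 4-fold, while 15 genes including Vstm2a were over 2-fold higher in High and 16 over 2-fold lower. The plot of difference against spread shows Vstm2a at the top of the cloud with a smaller spread within classes than Mest.

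**Figure D1:**
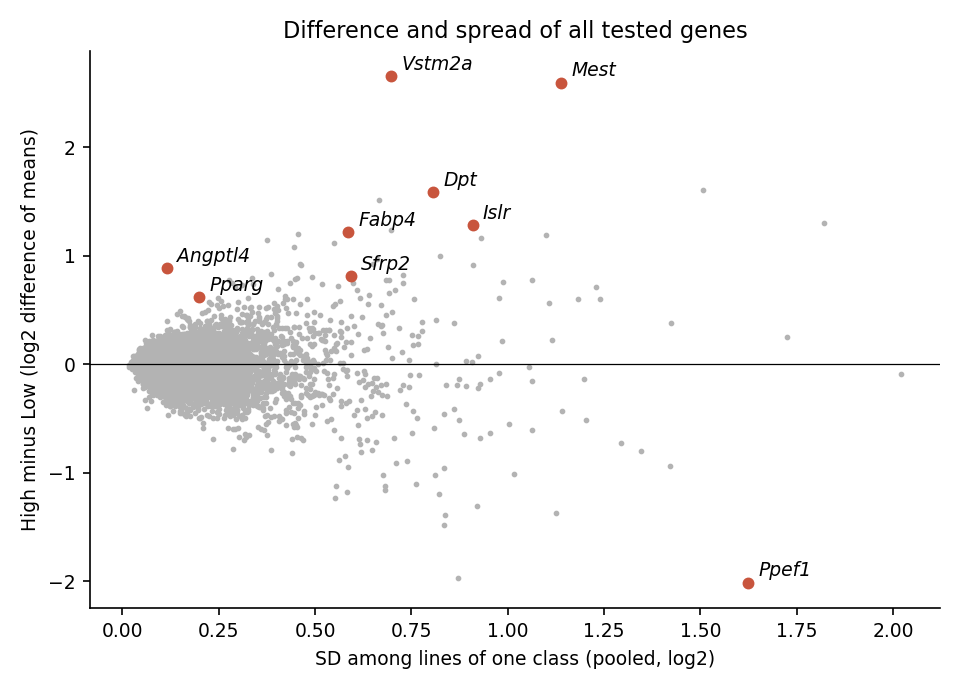
Difference of the class means (High minus Low, log2, vertical axis) against the SD among lines of one class (pooled over both classes, log2, horizontal axis) for the 16339 tested genes, each a point, with 9 genes in red. Vstm2a sits highest at 2.66, next to Mest at 2.60, and Ppef1 sits lowest at -2.01.

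The spread of Vstm2a was wide over the lines as a whole. Its SD over the 10 lines was 1.55 against a median of 0.14 for all tested genes, and its range was 3.72 against a median of 0.45 and a 99th percentile of 1.89. By SD it ranked 7 and by range 14 of the 16339 genes. Within classes it varied as well: the 5 Low lines spanned 0.82, with lines 2 and 5 about as bright as each other and above the other 3, which lay within 0.16 of one another.

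High line 5 stood apart from its class. The other 4 High lines lay within 0.57 of each other, with a mean of 10.63 ± 0.23 (SD, n = 4), and High line 5 was 1.72 below the nearest of them, or 3.29-fold. Their mean was 3.94-fold above its level, whereas High line 5 was 2.11-fold above the Low mean. Its position between the groups shaped much of what follows, so results that rest on it are given with and without it. Without it the class difference of Vstm2a was 3.05, and leaving out any other single line gave between 2.48 and 2.77.

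In order of level, the lines ran from High line 1 through High lines 4, 2, 3 and 5 to Low lines 2, 5, 3, 1 and 4. Neighbours in this order differed by less than the Low SD of 0.39 except at 3 steps, from High line 3 to High line 5 (1.72), from High line 5 to Low line 2 (0.62) and from Low line 5 to Low line 3 (0.58). With 1 array for each line, no error can be set on a single line. In the arrays' own terms, Vstm2a was above the 25th percentile of signal in all 10 lines and above the array median in 7, namely the 5 High lines and Low lines 2 and 5. Since a probe's brightness depends on its sequence, this does not place Vstm2a among other genes by amount of RNA. In such bulk samples, fewer cells that make a transcript and less of it per cell cannot be told apart.

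No batch is named in the labels, but the clone names begin with digits that the classes partly share. Among clones whose names begin with 4, which are 2 Low and 2 High lines, the class difference of Vstm2a was 2.90, or 7.48-fold. What the digit stands for is not given.

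**Figure D2:**
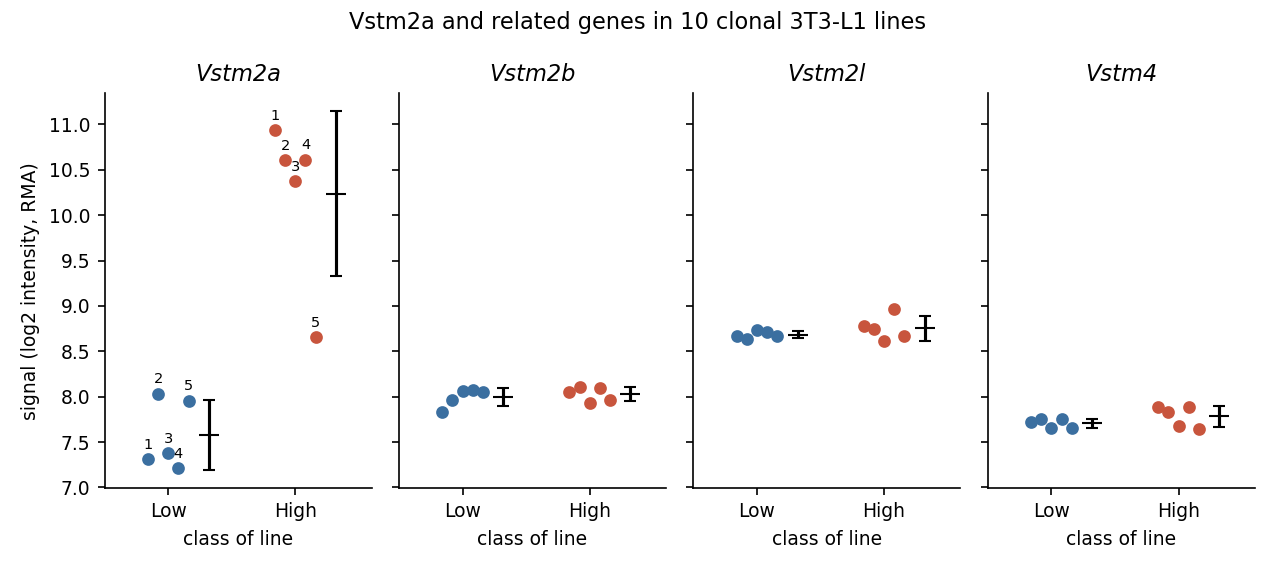
Signal (log2 intensity) of Vstm2a and of 3 related genes in the Low lines (blue) and High lines (red), 1 point per line, with the class mean and SD (n = 5) as a black bar beside the points; numbers over the points are the line numbers for Vstm2a. Vstm2a runs from 7.21 to 10.94 with High line 5 at 8.65 between the groups, while the classes overlap for the 3 related genes, and levels of different genes are not to be compared.

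The genes named most like Vstm2a did not separate the classes. Tested as part of the comparison of all genes (limma, 5 High against 5 Low lines, p adjusted by Benjamini-Hochberg over 16339 genes), Vstm2b differed by 0.03 (95% interval -0.12 to 0.18, adjusted p = 0.91), Vstm2l by 0.07 (-0.08 to 0.22, adjusted p = 0.82) and Vstm4 by 0.08 (-0.07 to 0.22, adjusted p = 0.80). The upper ends of these intervals are far below the difference of Vstm2a, and that of Vstm2b turned to -0.000297 when the arrays were centred. Vstm5 was below the brightness filter, with class means of 6.27 in Low and 6.33 in High.

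The genes beside Vstm2a on chromosome 11 were examined next, to see whether the stretch of chromosome differed as a whole. The 5 nearest tested genes on one side were Cobl, Grb10, Ddc, Fignl1 and Ikzf1, and on the other Egfr, Fbxo48, Plek, Cnrip1 and Ppp3r1. None of the 10 reached an unadjusted p of 0.05, none separated the classes, and their differences ran from -0.55 to 0.35 with a median of -0.05. Over all tested genes, 3.16% were higher and 4.79% lower in High at an unadjusted p under 0.05, and 0.526% had all High lines above all Low lines and 1.04% all below.

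The classes overlapped for the nearest tested genes, whose distances from Vstm2a are not given here. Cobl, an actin-nucleating protein, differed by 0.03 (95% interval -0.19 to 0.25), and the sign turned (-0.000233) when the arrays were centred. Egfr, the receptor of epidermal growth factor, differed by 0.35 (-0.17 to 0.86) with wide overlap, from 7.80 to 9.19 in Low and from 8.26 to 9.04 in High. Ddc, which makes dopamine and serotonin from their precursors, came closest to the pattern of Vstm2a, with a Pearson r of 0.80 over the 10 lines and a difference of 0.17 (unadjusted p = 0.053).

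Grb10, an adaptor that dampens insulin receptor signalling, varied more than Vstm2a, with its low values in Low line 2 and High lines 4 and 5. It was 6.75 in Low line 2 against 12.08 to 12.28 in the other Low lines, and 9.19 and 9.53 in High lines 4 and 5 against 11.79 to 12.29 in the other 3. High line 5 was thus below most of its class for both genes. High line 4 had low Grb10 with high Vstm2a, and Low line 2 had low Grb10 with the highest Vstm2a of its class. Across all 1431 other tested genes of chromosome 11 the median difference was 0.03, close to the 0.02 over all genes. Of these 1431, 22 were higher and 27 lower at an unadjusted p under 0.05, both smaller shares than the 3.16% and 4.79% of all genes.

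**Figure D3:**
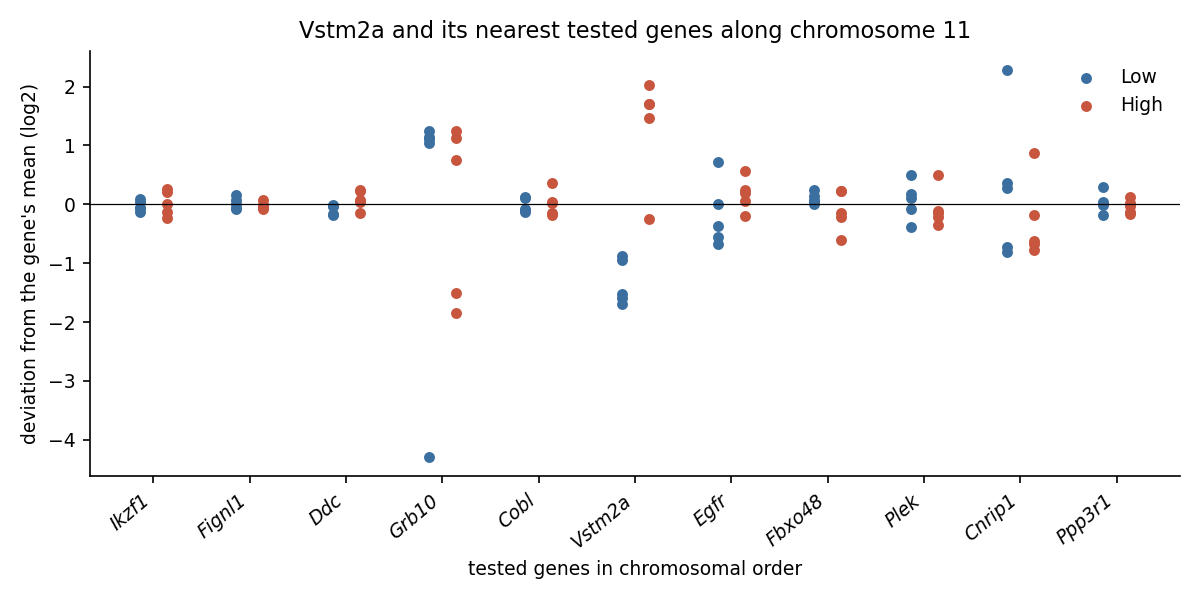
Deviation of each line from the gene's mean over the 10 lines (log2) for Vstm2a and the 5 nearest tested genes on each side, in chromosomal order and not to scale, Low lines in blue and High lines in red. Vstm2a is the one gene of the 11 whose classes separate, and Grb10 has 1 Low line (6.75) and 2 High lines (9.19 and 9.53) far below the rest.

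The pattern of Vstm2a was then set against every other tested gene. Over the 10 lines 111 of 16338 genes had a Pearson r above 0.8 with Vstm2a and 157 had an r below -0.8. These correlations are descriptions and carry no p. The 10 lines fall into 2 classes and Vstm2a was chosen on that split, so any gene that differed by class tends to rank high.

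The 10 named genes most like Vstm2a were Coq2, Zfp316, Cd93, Mest, Grik5, Fcrlb, Angptl4, Snai2, Tbl2 and Vamp5, with r from 0.90 to 0.96 and Spearman's rho from 0.64 to 0.94. Without the 2 lines farthest from the median of Vstm2a, High lines 1 and 4, r ran from 0.85 to 0.98 over 8 lines. Most of these genes varied over a far narrower range than Vstm2a. Coq2, an enzyme of coenzyme Q synthesis, had the highest r at 0.96 and was 10.36 to 10.50 in Low and 10.58 to 10.80 in High. Tbl2 differed by as little as 0.15 between the classes.

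Mest came nearest to Vstm2a in size. Its High lines 1 to 4 stood at 9.39, 9.77, 10.93 and 9.76, and High line 5 at 6.62, inside the Low range of 6.56 to 6.90. So Mest and Vstm2a were both high in the same 4 High lines, but in High line 5 Mest was at the Low level while Vstm2a was above every Low line. Among those 4 lines the order differed, since High line 3 had the highest Mest and the lowest Vstm2a, and rho over the 10 lines was 0.64 against an r of 0.92.

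Cd93, a surface glycoprotein, differed by 0.71 (SE 0.16, adjusted p = 0.28) and also had its lowest High value in line 5, at 8.64 within the Low range of 8.37 to 8.78. Snai2, a zinc finger repressor active in mesenchymal precursors, differed by 0.22 (SE 0.07, adjusted p = 0.44), with High line 5 at 12.01 among Low lines at 11.87 to 12.06. Grik5, a glutamate receptor subunit, and Vamp5, a vesicle membrane protein, had no overlap between classes, with differences of 0.42 (adjusted p = 0.28) and 0.45 (adjusted p = 0.255).

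Angptl4, a secreted inhibitor of lipoprotein lipase and a target of PPARγ, was the 1 gene of the 16339 (0.00612%) that passed the adjusted threshold of 0.05 in the comparison of High and Low lines. It was 10.44, 10.23, 10.35, 10.47 and 10.30 in High lines 1 to 5 and 9.47, 9.33, 9.44, 9.46 and 9.68 in Low lines 1 to 5. It rose by 0.88 (SE 0.08, limma adjusted p = 0.0012), and no line stood apart. In this it differed from Vstm2a: High line 5 had Angptl4 at the level of its class, and r after the class means were taken off was 0.27. When clones were blocked by the leading digit of their names, the difference was 0.72 and the adjusted p 0.79, so the call was lost there.

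The 10 named genes most opposite to Vstm2a were Prkd2, Hspa4l, Sufu, Foxc2, Tpd52, Adcy3, Gnpat, Prcp, Ankrd42 and Tle4, with r from -0.96 to -0.91, rho from -0.99 to -0.58, and r from -0.96 to -0.86 over the 8 lines. Foxc2, a forkhead factor of mesenchymal tissues, was 11.01 to 11.33 in Low and 10.54 to 10.85 in High, a difference of -0.47 (SE 0.08, adjusted p = 0.24). Gnpat, the first enzyme of ether lipid synthesis, differed by -0.40 (SE 0.06, adjusted p = 0.078) with no overlap, and Sufu, which restrains hedgehog signalling, by -0.20 (SE 0.06, adjusted p = 0.40).

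Adcy3 and Hspa4l also set High line 5 apart from the other High lines, within or beyond the Low range. Adcy3, an adenylate cyclase, was 7.81 to 8.20 in High lines 1 to 4 and 8.92 in High line 5, against 8.74 to 8.89 in Low. Hspa4l, a heat shock chaperone, was 9.56 to 9.73 in those 4 lines and 10.26 in High line 5, against 10.22 to 10.65 in Low. The list of 20 names is loosely held by 10 arrays, since the names kept numbered between 7 and 13 when any single line was left out and 4 when genes were ranked by rho.

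Leaving out High line 5 altered several of these contrasts. The number of genes past the adjusted threshold then went from 1 to 19, and among the 20 genes named above Mest (3.27), Cd93 (0.86), Hspa4l (-0.81), Adcy3 (-0.83), Foxc2 (-0.50) and Gnpat (-0.41) passed, beside Angptl4. Without Low line 3 or Low line 5 the number was 2. High line 5 was singled out by its Vstm2a level, and the 20 genes by their r with Vstm2a over the same lines. Leaving it out thus tends to narrow the High spread of such genes, so these added calls are no independent support. The same limit applies to calls given below without that line.

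The pattern was next followed among lines of the same class, which the choice of Vstm2a on the class contrast did not use. Each other gene was fitted on class plus the log2 signal of Vstm2a, and the slope is the log2 change of that gene per 1 log2 unit of Vstm2a at a fixed class. After adjustment over 16338 genes 1 gene passed (0.00612%), Sfrp2, and at an unadjusted p under 0.05 there were 293 positive slopes (1.79%) and 251 negative ones (1.54%).

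Sfrp2 encodes a secreted frizzled-related protein that modulates Wnt signalling and is found in mesenchymal precursors. In High lines 1 to 5 it stood at 12.21, 12.17, 11.78, 12.24 and 10.45, and in Low lines 1 to 5 at 10.67, 11.02, 10.99, 10.62 and 11.48. Within High the dimmest line for Vstm2a was also the dimmest for Sfrp2, and within Low the 2 lines brightest for Vstm2a, lines 2 and 5, were the 2 brightest for Sfrp2.

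The slope of Sfrp2 was 0.81 (SE 0.09, limma adjusted p = 0.0192), and r was 0.79 within the 5 Low lines, 0.99 within the 5 High lines and 0.95 over the 10 lines with class means taken off. The slope kept its sign and a size between 0.71 and 0.86 when any single line was left out. The call was more fragile: the adjusted p was 0.0656, 0.0619, 0.0564 and 0.0732 without High lines 1 to 4 in turn, 0.0704 without Low line 4 and 0.885 without High line 5, where the unadjusted p was 0.0051. No gene passed the threshold in any of those 6 fits, in which 440 to 822 genes had an unadjusted p under 0.05, and 5 passed without Low line 1 and 3 without Low line 5.

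Islr, a secreted immunoglobulin and leucine-rich repeat protein of stromal cells, followed Vstm2a in a similar way. It was 11.86, 10.94, 10.58, 11.50 and 8.66 in High lines 1 to 5 and 9.47, 9.82, 9.55, 8.95 and 9.34 in Low lines 1 to 5. High line 5 was the lowest of all 10 lines for Islr, as for Sfrp2, whereas its Vstm2a was above every Low line. The slope was 1.21 (SE 0.15) and its adjusted p was 0.0558, or 0.0227 without Low line 1, 0.0177 without Low line 5 and 0.975 without High line 5, where the slope was 0.85. Between the classes Sfrp2 differed by 0.81 (SE 0.31, adjusted p = 0.53) and Islr by 1.28 (SE 0.47, adjusted p = 0.51), and without High line 5 these were 1.15 (adjusted p = 0.028) and 1.79 (adjusted p = 0.0213).

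By class-centred r the 5 genes most like Vstm2a were Sfrp2, Islr, Nrg1, Tyw1 and Ptpmt1 and the 5 most opposite were Oaf, Slc10a4, Ccnd1, Ildr2 and Phf11d. In all, 43 genes had a class-centred r above 0.8 and 33 one below -0.8. Nrg1, a growth factor for ERBB receptors, had an r of 0.88 within Low and 0.93 within High, and a slope of 0.19 (SE 0.05, adjusted p = 1.0). Oaf, a secreted protein, had an r of -0.90 within Low and -0.97 within High, and a slope of -0.17 (SE 0.04, adjusted p = 1.0) that was -0.10 without High line 5.

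High line 5 weighed most on Ildr2, Phf11d and Ptpmt1. The slope of Ptpmt1, a mitochondrial phosphatase, was 0.16 (SE 0.05, adjusted p = 1.0) and 0.05 without that line. Ildr2, an immunoglobulin-like domain receptor, was 9.93 in High line 5, with High lines 1 to 4 at 7.45 to 7.74 and Low at 7.35 to 7.50, and Phf11d, a PHD finger protein, 8.01 against 6.56 to 6.78 in the other High lines. The slope of Ildr2 was -0.97 (SE 0.15, adjusted p = 0.25) with High line 5 and -0.02 without it. The slope of Phf11d was -0.57 (SE 0.10, adjusted p = 0.38) and -0.10 without it.

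**Figure D4:**
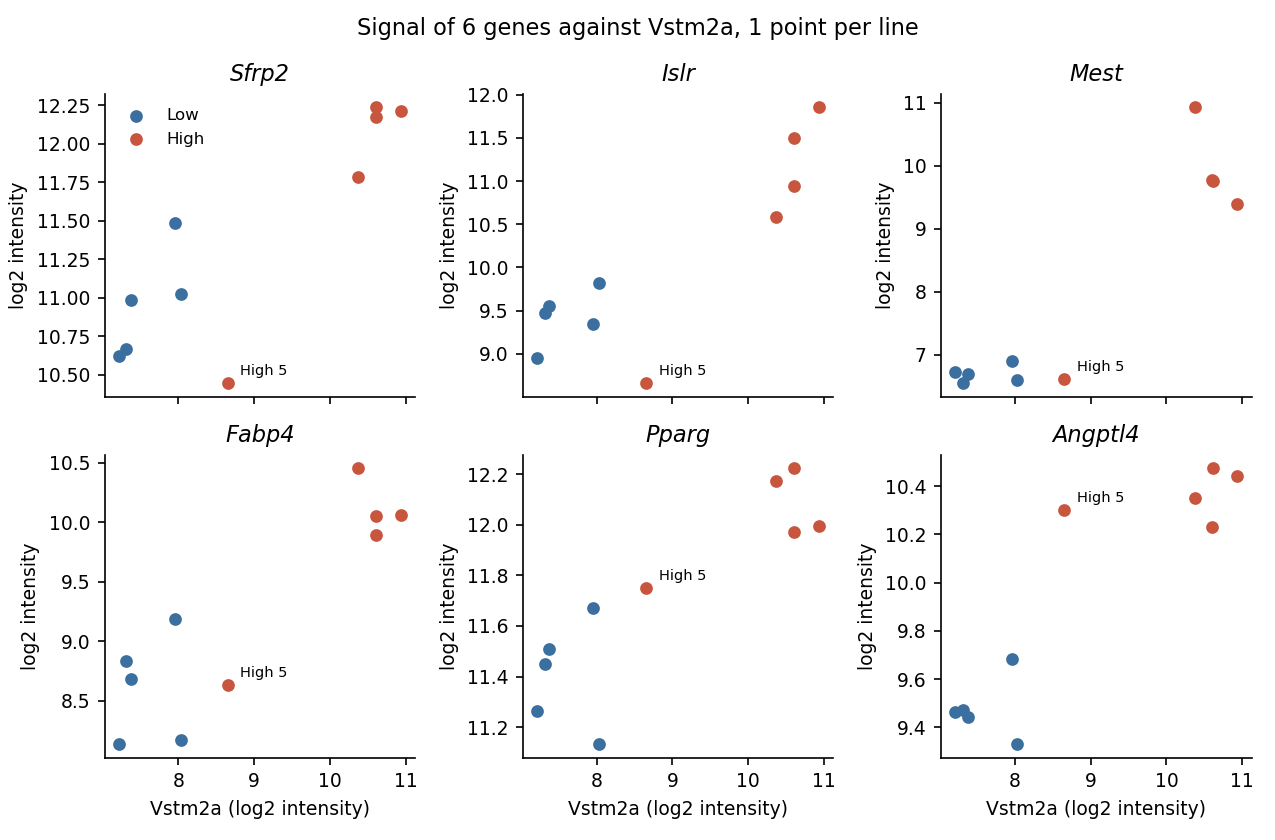
Signal of 6 genes (log2 intensity, vertical axes, each on its own scale) against Vstm2a (log2 intensity, horizontal axis) in the 5 Low lines (blue) and 5 High lines (red), 1 point per line. High line 5, at 8.65 for Vstm2a, is lowest of all lines for Sfrp2 and Islr, lies among the Low lines for Mest and Fabp4, lies with the High lines for Angptl4, and lies between the classes for Pparg, nearer to Low line 5 (11.67) than to any other High line.

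The BMP pathway was followed through 74 genes in 5 lists, of which 66 passed the brightness filter. Of these 45 had a positive and 21 a negative difference between High and Low, with a median of 0.04 against 0.02 over all tested genes. None passed the adjusted threshold (smallest adjusted p = 0.28), against 0.00612% of all genes, and at an unadjusted p under 0.05 there were 5 higher and 2 lower, where 3.16% and 4.79% of all genes were. In 3 genes (4.55%) all High lines were above all Low lines, against 0.526% of all genes, and in none the reverse, against 1.04%.

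Among ligands, 13 of 16 were tested, and 0 had an unadjusted p under 0.05. Bmp4, a ligand that commits mesenchymal cells to the fat lineage, ran from 7.44 to 9.99 in Low and from 7.67 to 9.0 in High, and the difference of -0.41 had a 95% interval of -1.39 to 0.56 and was 0.06 with the clone-name digit as a block. Its r with Vstm2a over the 10 lines was -0.26. Bmp2 was below the brightness filter, at 6.24 in Low and 6.27 in High.

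The main receptors differed little between lines. Bmpr1a, a type I receptor, was 11.99 to 12.14 in Low and 12.05 to 12.13 in High, with a difference of 0.0021 (95% interval -0.11 to 0.12) that was -0.0297 when the arrays were centred, and Bmpr2, a type II receptor, differed by -0.10 (-0.29 to 0.09). Tgfbr3, the co-receptor betaglycan, was 11.34 to 11.68 in Low and 11.68 to 11.96 in High, with no overlap and a difference of 0.25 (SE 0.08, unadjusted p = 0.0076, adjusted p = 0.42). Bmpr1b, another type I receptor, was below the filter.

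Among SMADs and their regulators, Smad9 and Smurf1 were higher in High and Smad1 lower at an unadjusted p under 0.05. Smad9, one of the BMP-activated SMADs, was 9.38 to 9.67 in Low and 9.72 to 10.27 in High, a difference of 0.34 (SE 0.10, adjusted p = 0.40). Smad1, another BMP-activated SMAD, differed by -0.21 (SE 0.09, adjusted p = 0.59), and Smurf1, a ubiquitin ligase that marks these SMADs for breakdown, by 0.24 (SE 0.09, adjusted p = 0.51). Smad6, an inhibitory SMAD that BMP signalling induces, differed by 0.15 (SE 0.10, adjusted p = 0.75).

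Of 15 tested target genes Id4 and Atoh8 were higher in High at an unadjusted p under 0.05, and of 17 antagonists and modulators Crim1 was lower. Id4, an inhibitor of helix-loop-helix factors, was 9.33 to 10.06 in Low and 10.09 to 10.62 in High, a difference of 0.58 (SE 0.14, adjusted p = 0.28). Atoh8, a helix-loop-helix factor, differed by 0.37 (SE 0.14, adjusted p = 0.51), and Crim1, a membrane protein that binds BMPs, by -0.24 (SE 0.10, adjusted p = 0.60). Id1, a common readout of BMP signalling, differed by 0.12 (95% interval -0.02 to 0.26, adjusted p = 0.68).

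Within classes few BMP genes followed Vstm2a. Of the 66 genes 2 had a positive slope on Vstm2a at an unadjusted p under 0.05, the ligand Bmp8b and the type II receptor Acvr2a, and 2 a negative one, the co-receptors Rgma and Rgmb, 3.03% in each direction beside 1.79% and 1.54% of all genes. None passed after adjustment. All 4 slopes were past that p only with High line 5: Bmp8b went from 0.11 to 0.07 without it (unadjusted p = 0.573), Acvr2a from 0.18 to 0.17 (0.354), Rgmb from -0.20 to -0.09 (0.680), and Rgma turned from -0.16 to 0.05 (0.757). Among the BMP genes named here, Id3 and Nog were past that p only without High line 5, and the 66 genes were not counted in that fit. Id3 then went from 0.08 to 0.54 (unadjusted p = 0.0215) and Nog from -0.08 to -0.41 (0.0495). In that fit 822 of all 16338 genes had an unadjusted p under 0.05, and 0 passed after adjustment, so these 2 named genes are a description only. Id4, though higher in every High line than in any Low line, had a slope of 0.02 (SE 0.12) that was -0.26 without High line 5, and Smad9 one of 0.10 (SE 0.08) that was 0.03 without it.

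**Figure D5:**
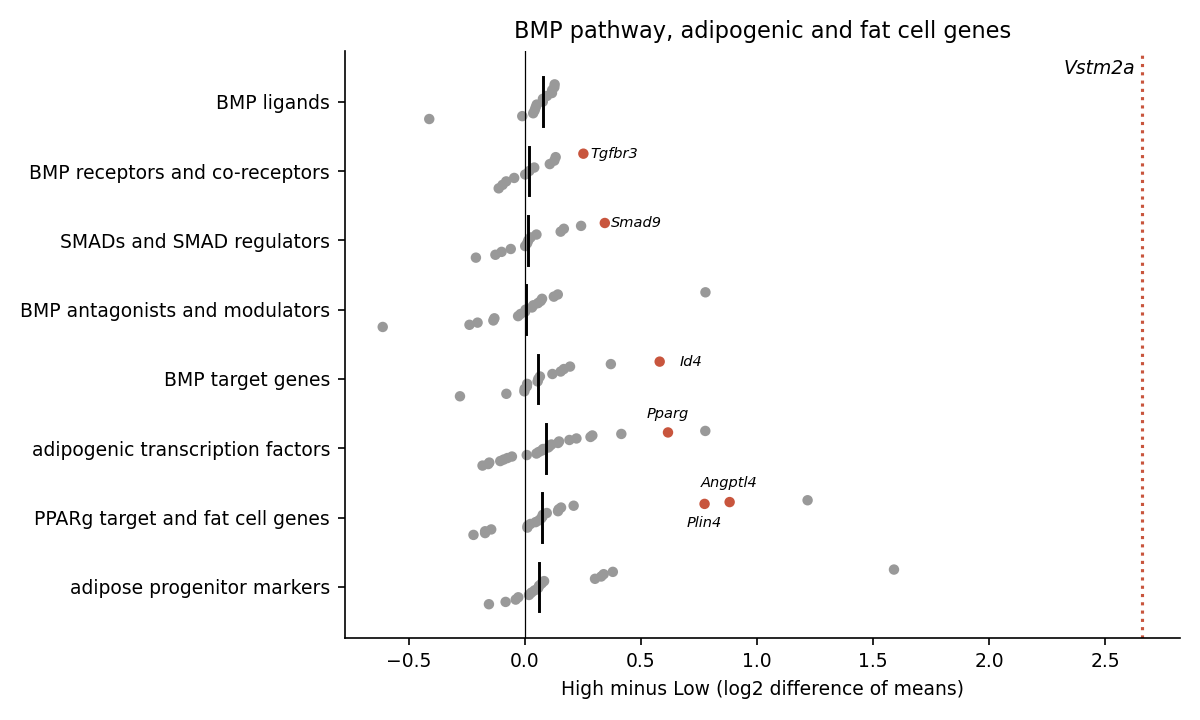
Difference of class means (High minus Low, log2, horizontal axis) for each tested gene of 5 BMP lists, adipogenic transcription factors, fat cell genes and adipose progenitor markers, 1 point per gene, with the list's median as a black bar. Red points are genes whose 5 High values all lie above the 5 Low values, and the dotted line marks Vstm2a at 2.66, beyond every listed gene.

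The adipogenic genes that VSTM2A has been linked to were then read beside it. Of 24 adipogenic transcription factors, all tested, 6 were higher in High at an unadjusted p under 0.05 and 0 lower, and 0 passed the adjusted threshold, where 3.16% of all genes were higher and 4.79% lower. Of the 24, 17 had a positive and 7 a negative difference, with a median of 0.09 against 0.02 over all genes. Pparg was 12.00, 12.22, 12.17, 11.97 and 11.75 in High lines 1 to 5 and 11.45, 11.13, 11.51, 11.26 and 11.67 in Low lines 1 to 5. The classes did not overlap, and the difference was 0.62 (SE 0.11, adjusted p = 0.255), or 0.69 (adjusted p = 0.0489) without High line 5.

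Pparg and Vstm2a followed the same order between classes but not within them. High line 5 was the lowest High line for both, but in Low the line brightest for Vstm2a, line 2, was the dimmest for Pparg. The class-centred r was 0.44, with -0.01 within Low and 0.72 within High, and the slope of 0.12 (SE 0.09, unadjusted p = 0.18) turned to -0.07 without High line 5. Rxra, the partner of PPARγ, differed by 0.29 (SE 0.08, adjusted p = 0.31), with overlap between classes. The classes also overlapped for Cebpa, Cebpb, Cebpd and Zfp423. These differed by 0.19 (limma adjusted p = 0.76), 0.11 (0.72), 0.15 (0.84) and 0.05 (0.85) in that order.

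Of 26 genes of fat cells, 20 were tested, 4 were higher in High at an unadjusted p under 0.05 and 0 lower (3.16% and 4.79% of all genes), and Angptl4 alone passed the adjusted threshold. Plin4, a lipid droplet coat protein, was between 8.4 and 9.18 in Low and 9.37 to 9.89 in High, a difference of 0.77 (SE 0.15, adjusted p = 0.255). Fabp4, a fatty acid carrier, was 10.06, 10.06, 10.45 and 9.89 in High lines 1 to 4 but 8.63 in High line 5, within the Low range of 8.13 to 9.19. Its difference of 1.22 (SE 0.31) had an adjusted p of 0.30, and without High line 5 it was 1.51 with an adjusted p of 0.0213.

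The within-class slopes of Fabp4 and Mest rested on High line 5, while those of some other adipogenic genes kept their size without it. Fabp4 had a slope of 0.61 (SE 0.18, unadjusted p = 0.0055) that was 0.03 without High line 5, and Mest one of 1.27 (SE 0.31, unadjusted p = 0.0017) that turned to -0.48. Lpl, the lipase that frees fatty acids from lipoproteins, had a slope of 0.33 (SE 0.08, unadjusted p = 0.0012, adjusted p = 0.78), and 0.30 (unadjusted p = 0.13) without that line. It was 11.04 in High line 5, the lowest of all 10 lines, against 11.45 to 11.92 in the other High lines. The slopes of Nr1h3, Ppargc1a and Retn did not shrink without that line, though their unadjusted p rose above 0.05. Nr1h3 went from 0.17 (unadjusted p = 0.019) to 0.24 (0.128) and Ppargc1a from 0.59 (0.030) to 1.11 (0.0615). Retn, with a negative slope, went from -0.11 (0.038) to -0.12 (0.297). Cebpa was past an unadjusted p of 0.05 only without that line, with a slope that went from 0.09 (0.394) to 0.46 (0.0482, adjusted p = 0.986).

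The cells were checked against markers of the cell types they could resemble. Of 18 adipose progenitor markers 16 were tested, and 4 were higher in High at an unadjusted p under 0.05, as 3.16% of all genes were: Pdgfra, Thy1, Cd9 and Dpt. Dpt, the matrix protein dermatopontin, was 9.70, 9.94, 10.36 and 10.70 in High lines 1 to 4, 7.89 in High line 5 and 7.81 to 8.56 in Low, a difference of 1.59 (SE 0.42, adjusted p = 0.31) that was 2.05 (adjusted p = 0.0026) without High line 5. Its slope on Vstm2a of 0.83 (SE 0.24, unadjusted p = 0.0055) turned to -0.50 without that line.

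Fibroblast markers passed the filter in 11 of 12 cases, and neural markers in 10 of 12, leukocyte in 4 of 8, endothelial in 5 of 6, and epithelial and skeletal muscle markers in 6 of 6 each. A probe set can pass the filter on background signal alone, so these counts do not show that such cells were present. None of these markers passed the adjusted threshold between classes. At an unadjusted p under 0.05, 3 differed, where 3.16% of all genes were higher and 4.79% lower. Csf1r, a receptor of macrophages, differed by -0.16 (SE 0.06), with all High lines below all Low lines, as in 1.04% of all genes. The other 3 tested leukocyte markers had positive differences. The muscle factor Myog differed by 0.21 (SE 0.09), and Thy1, which is in the fibroblast list too, by 0.34 (SE 0.13). The part of other cell types in the signal of Vstm2a was not tested.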

How the data were processed

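Total RNA of 10 lines was hybridised to Affymetrix whole-transcript arrays, 1 array a line. The deposited values are log2 intensity, made by the authors with robust multi-array average (RMA), per the submitters' processing notes; for its settings and the array's genome build, no label used here states them. The 10 arrays had medians of 7.74 to 7.84 and pairwise correlations of 0.982 to 0.995, and no value was missing. Their number limits the precision.

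Of 34760 probe sets, 21640 were annotated to 1 gene, 1321 to several and 11799 to none in the platform annotation used here, and 21553 of the first matched RefSeq. The brightest probe set stood for each of 954 genes with several. A gene was tested if above the array's 25th percentile on at least 5 arrays. Classes were compared with limma 3.58.1 (R 4.3.3), and slopes fitted on class plus Vstm2a, with Benjamini-Hochberg adjustment and a threshold of 0.05. The fits were tried on simulated data in which each gene was drawn apart from the others, and no result here rests on that trial. Intervals are 95% intervals of the fit.

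Named are Vstm2a, its gene family, a panel of BMP and adipogenic genes, the 10 genes most like and 10 most unlike it by r and 5 each by class-centred r (predicted and non-coding genes skipped), 5 neighbours a side, list members without overlap between classes, genes past the slope threshold, and members met by small counts. Vstm2a and the lists were chosen with earlier results of these data known. Line numbers follow accession order and pair nothing. The labels do not say whether RNA came from more than 1 culture of a line. With 1 array a line, p-values rest on the spread between lines, in which clone, culture and array cannot be told apart. Motifs were searched on both strands of RefSeq promoters (GRCm38.p6). Alternatives were quantile normalization, centring, other filters, another probe set rule, limma's trend and robust options, the clone-name digit as a block, rank correlation and leaving out each line.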

Additional observations from a re-analysis of the deposited data

Results flagged for a closer look

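In a class of 5 lines, a highest or lowest line was marked where its gap to the next line was large against the range of the class (Dixon's ratio above 0.71, the 95% critical value). Of 128 sets of 5 lines, for 64 genes in 2 classes, 13 were marked, and chance marks about 1 in 20, here about 6.4. High line 5 accounted for 10 of the 13. The 64 genes do not take in every gene named here, so these counts do not cover all of them. Plek, a neighbour of Vstm2a that is not among the 13, was 7.04 in High line 5 against 6.18 to 6.43 in the other High lines.

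Vstm2a itself was marked at 8.65 in High line 5, against 10.37 to 10.94 in the other High lines. On the same side, High line 5 was low for Sfrp2 at 10.45, for Ptpmt1 at 10.34, for Tyw1 at 9.46 and for Crim1 at 11.31. On the other side it was high for Hspa4l at 10.26, Oaf at 12.47, Ccnd1 at 13.52, Ildr2 at 9.93 and Phf11d at 8.01. Apart from Crim1, these genes were named for their likeness or opposition to Vstm2a, for which High line 5 stands apart, so their number is no independent sign that the line differs.

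In the Low class, Grb10 was marked at 6.75 in Low line 2, against 12.08 to 12.28 in the others, Tyw1 at 9.75 in Low line 2, and Coq2 at 10.36 in Low line 4. The last 2 were small gaps within narrow ranges.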

How the results depend on the processing

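The class difference of Vstm2a was 2.66 after quantile normalization, 2.63 after centring and 2.48 to 3.05 with 1 line left out. The count of genes past the adjusted threshold between classes was 1, 2 after centring (Angptl4 and Gnpat), 0 with the clone-name digit as a block (limma, 676 at an unadjusted p under 0.05), and 1 to 19 with 1 line left out. The within-class slope count was 1 under centring, quantile normalization, both other filters and the trend and robust options, and 0 to 5 with 1 line left out. It was not run with the digit block or the other probe set rule. Of the 20 genes most like or unlike Vstm2a, 4 were also named by Spearman's rho, and 7 to 13 with 1 line left out.

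Over the 72 values for named genes, 1171 alternative values were computed: 1125 kept their direction and side of the threshold, 14 newly passed it, 7 no longer did and 25 changed sign. Differences near 0 changed sign after centring for Cobl (-0.000233), Vstm2b (-0.000297) and Bmpr1a (-0.0297). The digit block draws class differences from the 2 Low and 2 High clones whose names begin with 4. With this block, differences near 0 changed sign for Cobl (-0.0548), Vstm2b (-0.0506) and Vstm2l (-0.00905). Larger differences turned from -0.55 to 0.337 for Cnrip1 and from -0.41 to 0.0554 for Bmp4. With 1 line left out, differences ran from -0.0540 to 0.0820 for Cobl, -1.18 to 0.358 for Grb10, -0.0103 to 0.0567 for Vstm2b and -0.0221 to 0.0160 for Bmpr1a. Slopes on Vstm2a ran from -0.476 to 1.48 for Mest, -0.0731 to 0.176 for Pparg, -0.504 to 0.996 for Dpt and -0.264 to 0.0854 for Id4, each lowest without High line 5, and from -0.200 to 0.0464 for Rgma, highest without it. The cause was not tested.

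No paired analysis was possible because no label links a High line to a Low line. With 10 arrays, genes that differ less than the spread between clones cannot be told from unchanged ones.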
